A study of Mus musculus with 2 samples.

Results

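The genes described here are 9 secreted antagonists and modulators of bone morphogenetic protein (Bmp) signaling: Grem1, Nog, Chrd, Chrdl1, Chrdl2, Fst, Fstl1, Bmper and Twsg1. They were chosen by name, without a cutoff on any measured value, and all 9 are listed in both deposited tables of mouse colon cells, which hold 17809 genes for the wild-type library and 15972 genes for the reporter library.

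Bmps are secreted ligands that bind paired receptor kinases on a target cell, and the activated receptors phosphorylate Smad proteins that induce genes such as the Id family. Antagonists bind the ligands in the extracellular space and keep them from their receptors. In the colon, Bmp signaling is known to be strong near the crypt top, where epithelial cells differentiate, and to be held low around the stem cells at the crypt bottom.

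Each condition is represented by 1 droplet-based single-cell library of untreated cells pooled from 3 adult female mice. The wild-type library came from C57BL/6 mice and held sorted epithelial and mesenchymal cells mixed in equal parts (version 3 of the 3' kit). The reporter library came from Pdgfra-H2B-eGFP mice, which carry a nuclear green fluorescent protein (GFP) expressed from the Pdgfra locus. It held mesenchymal cells sorted as GFP-positive (version 2 of the kit). The gate was meant to leave out cells without Pdgfra promoter activity, but some immune-like and epithelial-like cells were still found (below). With 1 library per condition, and no record of which cell came from which mouse, there are no replicates: intervals below cover counting error only, and differences between cell types were described by their size and not tested.

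The wild-type table holds 7495 cells (median 2804 genes each), and the reporter table holds 4409 cells (median 1381 genes each). The values are corrected UMI counts, in which the authors had already brought the cells of a library to a similar depth (cell totals of 6120 to 16389 in the wild-type library and of 2314 to 4432 in the reporter library). Levels were therefore compared only within a library and, apart from sums over a marker list, for 1 gene at a time. Only 1 cell barcode is shared by the libraries. Cells were clustered without the 9 genes and without the other Bmp pathway genes, and clusters were called "-like" from marker lists.

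Clustering of the wild-type cells gave 1142 CBFs1-like and 504 CBFs2-like cells, that is, cells with the markers of the crypt-bottom fibroblasts (CBFs) of the study, and 816 CTFs-like cells with those of the crypt-top fibroblasts (CTFs), which express more Pdgfra. There were also 886 smooth muscle-like, 593 blood endothelial-like, 118 pericyte-like, 78 glia-like, 40 immune-like and 20 interstitial cell of Cajal-like cells and 2476 epithelial cells, while 822 cells stayed unnamed. The reporter library gave 2089 CBFs1-like, 851 CBFs2-like and 759 CTFs-like cells, a fibroblast cluster of 545 cells led by Spock3, Saa3 and Cxcl5 that stayed unnamed, and 114 immune-like and 51 epithelial-like cells. Its labels are weaker: of the CBFs1-like cells 1093 formed a cluster led by Sbno2, Tnfaip3 and Frat2 with 0 CBFs1 markers among its 10 leading genes and the other 996 one with 1, and both CTFs-like clusters held as many markers of another list there as of their own (2 and 1). Pdgfra, itself among the markers used for the CTFs label, averaged 8.60 corrected counts per wild-type CTFs-like cell, compared with 1.80 for CBFs1-like and 3.49 for CBFs2-like cells, and in the reporter library 1.03 against 0.293 and 0.455. One marker list moved with the CTFs-like label. The 9 smooth muscle markers, all of them above 0 in each fibroblast class, summed to 19.8 corrected counts per CTFs-like cell in the wild-type library (2.80 per CBFs1-like, 2.11 per CBFs2-like and 265 per smooth muscle-like cell) and to 8.53 in the reporter library (0.685 and 0.435), and their part in the CTFs-like levels below was not tested. Free RNA in the droplets can add counts to cells that do not express a gene, so that the share of epithelial cells above 0 is given as a background where it matters. The median number of genes was 3221 in epithelial cells, against 2433 in CTFs-like and 2796.5 in CBFs2-like cells.

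Promoter sequences are shown for Grem1 and Twsg1, since these differed past 2-fold in opposite directions between CTFs-like and CBFs-like cells in both libraries. Grem1 lies on the minus strand of chromosome 2 (113746164 to 113758646) and Twsg1 on the minus strand of chromosome 17 (65921972 to 65951226), as annotated by GENCODE vM21 on GRCm38. The windows are the 250 bases before the RefSeq transcription start in GRCm38.p6, chr2:113758649-113758898 for Grem1 and chr17:65951188-65951437 for Twsg1, both printed 5′ to 3′ on the minus strand. The Twsg1 window reaches into the GENCODE gene, whose start lies further upstream than that of RefSeq. Capitals mark matches on either strand to the GC box GGGCGG, to the CCAAT box and to GGCGCC, a Bmp-responsive element bound by Smad proteins.
Grem1: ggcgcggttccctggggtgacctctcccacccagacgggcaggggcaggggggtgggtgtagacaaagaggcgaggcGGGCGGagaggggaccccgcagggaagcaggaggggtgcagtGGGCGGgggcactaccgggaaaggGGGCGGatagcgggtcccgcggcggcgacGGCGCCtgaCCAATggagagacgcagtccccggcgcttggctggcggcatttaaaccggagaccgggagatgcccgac
Twsg1: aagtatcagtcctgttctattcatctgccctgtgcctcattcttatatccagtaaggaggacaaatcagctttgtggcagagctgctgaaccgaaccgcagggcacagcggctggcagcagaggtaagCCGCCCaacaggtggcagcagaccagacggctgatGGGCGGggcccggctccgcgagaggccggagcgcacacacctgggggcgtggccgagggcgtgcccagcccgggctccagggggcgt

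The Grem1 window holds 3 GC boxes, 1 GGCGCC beginning 78 bases before the start and 1 CCAAT box beginning 69 bases before it. The Twsg1 window holds 2 GC boxes and neither of the other motifs. Among 32851 promoter windows of the same length, 9.59% hold GGCGCC, 32.7% hold a GC box and 33.8% hold CCAAT. RefSeq windows were matched for 5 of the 9 genes. Of the other 3, the Chrd window holds 4 GC boxes and 1 GGCGCC, the Fstl1 window 2 GC boxes and the Bmper window 1 GC box. None of the 5 windows holds TATAAA, which 12.4% of all windows hold. GC content ranged from 64.4% for Twsg1 to 78% for Chrd, against a median of 52.4% over all windows. A match describes these letters and is no evidence of binding.

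Grem1, which encodes the Bmp2 and Bmp4 antagonist Gremlin 1, had the largest ratio of all members between CBFs-like and CTFs-like cells. In the wild-type library it averaged 4.26 corrected counts per CBFs2-like cell, 1.23 per CBFs1-like cell and 0.0123 per CTFs-like cell. Grem1 was above 0 in 205 of 504 CBFs2-like cells (40.7%, exact 95% interval 36.4 to 45.1%), in 397 of 1142 CBFs1-like cells (34.8%, 32.0 to 37.6%) and in 6 of 816 CTFs-like cells (0.735%, 0.270 to 1.59%). The share in CTFs-like cells lay within the interval of the epithelial background (0.687%, 0.400 to 1.10%), so that Grem1 in CTFs-like cells was not detectable above free RNA at this depth. After random thinning of every cell to a total of 1000, the shares were 21.0%, 10.9% and 0% in the same order. Among the other classes, 3.27% of smooth muscle-like cells (2.20 to 4.67%) and 7.63% of pericyte-like cells (3.55 to 14.0%) were above 0, and so were 14.0% of the 172 cells of an unnamed cluster led by Ccl21a, Mmrn1 and Lcn2. That cluster was mixed, with on average 7.83 epithelial and 7.57 fibroblast marker genes above 0 per cell. Its Grem1 can therefore not be assigned to a cell type.

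Grem1 means in reporter cells were 0.676 in CBFs2-like, 0.589 in CBFs1-like, 0.736 in the unnamed fibroblast cluster and 0.0316 in CTFs-like cells. The shares above 0 were 17.7% (15.2 to 20.5%), 25.9% (24.1 to 27.9%), 33.8% (29.8 to 37.9%) and 2.11% (1.21 to 3.40%), and after thinning 10.8%, 13.2%, 15% and 1.05%. The order of CBFs1-like and CBFs2-like cells by share was thus the opposite of that by mean, and both ways the 2 classes lay within 2-fold of each other. The immune-like cells of this library were above 0 in 16 of 114 cells (14.0%), and 2 of 51 epithelial-like cells were.

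Grem1 counts were concentrated in few cells. In wild-type CBFs2-like cells the median cell was at 0 and the highest held 61 corrected counts. The top 10% of these cells held 62.9% of the class's Grem1, and 74 cells (14.7%) had 10 or more corrected counts. In CBFs1-like cells 22 cells (1.93%) reached 10, with a highest value of 26. Among reporter cells the top 10% held 84.9% of the CBFs2-like and 65.3% of the CBFs1-like Grem1. A class mean of Grem1 is therefore the level of a subset of its cells and not of a typical cell.

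**Figure D1:**
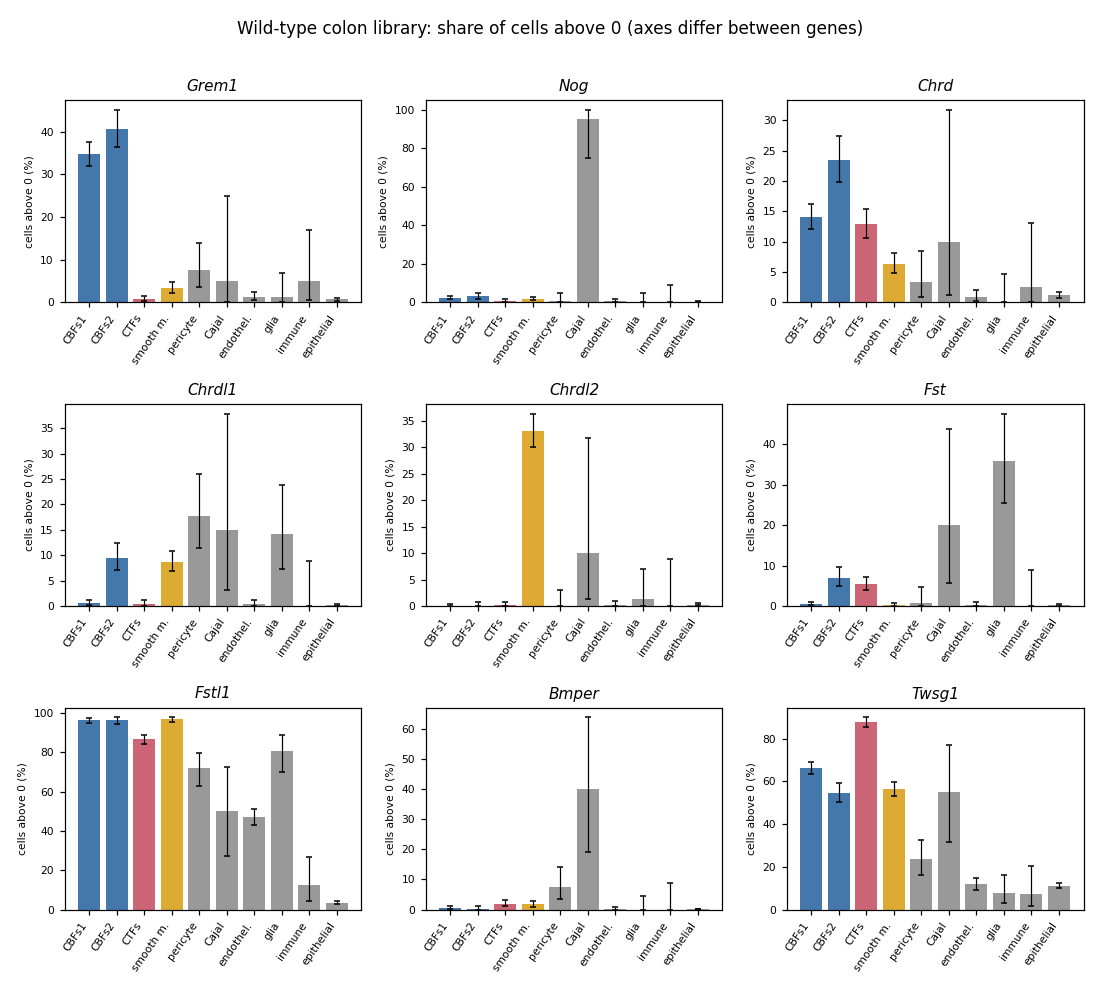
Share of cells with a corrected count above 0 (y axis, percent, scaled separately for each gene) for each of the 9 genes in 10 cell classes of the wild-type library (x axis, "-like" left out of the labels). Bars are shares and whiskers exact 95% binomial intervals: Grem1 reaches 40.7% in CBFs2-like and 34.8% in CBFs1-like cells but 0.735% in CTFs-like cells, Chrdl2 stands out in smooth muscle-like cells (33.2%) and Nog in the 20 interstitial cell of Cajal-like cells (95%).

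Nog encodes Noggin, which binds several Bmps with high affinity. It was rare in fibroblasts: 2.45% of CBFs1-like cells (1.64 to 3.52%), 3.17% of CBFs2-like cells (1.83 to 5.10%) and 0.735% of CTFs-like cells (0.270 to 1.59%) were above 0, against 0.283% of epithelial cells (0.114 to 0.582%). The exception was the interstitial cell of Cajal-like cluster of 20 cells. There 19 cells were above 0 (95%, 75.1 to 99.9%), with a mean of 6.05 corrected counts and a highest value of 15. Of the marker list behind this label, only Hand1 was among the 10 leading genes of the cluster. Its cells carry markers of the pacemaker cells of the gut muscle, with mean levels of 6.35 for Kit, 5.40 for Ano1, 12.1 for Gja1 and 7.85 for Hand1, and Pdgfra was 0 in all 20. Their smooth muscle markers summed to 70.3 corrected counts per cell, against 265 in smooth muscle-like cells, of which only 1.81% (1.04 to 2.92%) were above 0 for Nog. No such cluster was found in the reporter library, where Nog was above 0 in 12 of 545 cells of the unnamed fibroblast cluster, 19 of 2089 CBFs1-like, 6 of 759 CTFs-like and 1 of 851 CBFs2-like cells.

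Chrd encodes Chordin, a Bmp-binding protein that is cut by proteases of the tolloid family. It was spread over all fibroblast classes of the wild-type library, with 23.4% of CBFs2-like cells (19.8 to 27.4%), 14.0% of CBFs1-like cells (12.0 to 16.2%) and 12.9% of CTFs-like cells (10.6 to 15.4%) above 0. Smooth muscle-like cells had a lower share of 6.32% (4.81 to 8.13%), and the epithelial background was 1.13% (0.753 to 1.63%). Shares among reporter cells were 9.22% in CTFs-like, 6.35% in CBFs2-like, 5.03% in CBFs1-like and 10.3% in the unnamed fibroblast cluster. Chrd (chromosome 16, 20733127 to 20742384, plus strand) overlaps Thpo on the other strand, and the strand setting of the counting is not given in the sources used here.

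The Chordin-like genes Chrdl1 and Chrdl2 encode smaller proteins with Chordin-type cysteine-rich domains, and in these data they were highest in different cells. Wild-type Chrdl1 was above 0 in 17.8% of pericyte-like cells (11.4 to 25.9%), 14.1% of glia-like cells (7.26 to 23.8%), 9.52% of CBFs2-like cells (7.11 to 12.4%) and 8.69% of smooth muscle-like cells (6.92 to 10.7%), and in 3 of 20 interstitial cell of Cajal-like cells (15%, 3.21 to 37.9%). It was above 0 in only 6 of 1142 CBFs1-like and 3 of 816 CTFs-like cells, and in 4 of 2476 epithelial cells. Within fibroblasts Chrdl1 was thus highest in CBFs2-like cells. The order was the same among reporter cells, with 47 of 851 CBFs2-like cells (5.52%) above 0 against 9 of 2089 CBFs1-like and 3 of 759 CTFs-like cells.

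Among the named classes of more than 20 cells, Chrdl2 was highest in smooth muscle-like cells. It averaged 0.679 corrected counts per smooth muscle-like cell, with 294 of 886 cells above 0 (33.2%, 30.1 to 36.4%) and a highest value of 10. The share was 5.87% with each cell thinned to 1000 corrected counts. All 2462 fibroblasts together held 1 count. It was at 0 in CBFs1-like cells, where 3 counts of the class would be 0.263% (exact 95% bound 0.322%). It was also at 0 in CBFs2-like cells (0.595%, exact bound 0.729%) and in the 118 pericyte-like cells (2.54%, exact bound 3.08%). Of the epithelial cells 0.242% were above 0. The next highest shares were in small clusters, with 2 of 20 interstitial cell of Cajal-like cells, 9.52% of 63 cells of an unnamed cluster led by Stmnd1 and 9.09% of 99 cells of an unnamed cluster led by Notch3. The Stmnd1-led cluster was mixed, with on average 8.87 epithelial and 8.08 fibroblast marker genes above 0 per cell. The reporter library has no smooth muscle-like cluster. There 6 CBFs2-like and 2 CBFs1-like cells were above 0 and no CTFs-like cell was, where 3 counts of the class would be 0.395%. CTFs-like cells, which carry some smooth muscle marker RNA, held 1 count of Chrdl2 in the wild-type library and 0 in the reporter library.

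Fst encodes Follistatin, which binds activins most strongly and some Bmps. The highest share among wild-type classes was in glia-like cells, with 28 of 78 above 0 (35.9%, 25.3 to 47.6%). Among fibroblasts it was present in 6.94% of CBFs2-like cells (4.88 to 9.53%) and 5.39% of CTFs-like cells (3.94 to 7.17%), but in 0.438% of CBFs1-like cells (0.142 to 1.02%), close to the epithelial 0.242% (0.0890 to 0.527%). Of the reporter cells, 46 of 851 CBFs2-like cells (5.41%), 7 of 759 CTFs-like cells (0.922%) and 1 of 2089 CBFs1-like cells were above 0. Both libraries therefore had Fst in CBFs2-like and next to none in CBFs1-like cells. Fst (chromosome 13, 114452290 to 114458951, minus strand) overlaps the gene model Gm47040 on the other strand.

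Fstl1 encodes a secreted glycoprotein with a follistatin-like domain, and it was found in nearly every mesenchymal class. Its wild-type means were 8.45 in CBFs2-like, 5.95 in smooth muscle-like, 5.55 in CBFs1-like, 3.15 in CTFs-like, 2.79 in glia-like, 2.11 in pericyte-like, 1.45 in interstitial cell of Cajal-like and 0.973 in blood endothelial-like cells, against 0.0662 in epithelial cells. At least 86.8% of the cells of each fibroblast class were above 0, and 3.39% of epithelial cells (2.71 to 4.18%) were. The order of the fibroblasts was the same in the reporter library, at 3.13, 1.71 and 1.32 for CBFs2-like, CBFs1-like and CTFs-like cells. Neighbours in these orders, from CBFs2-like to blood endothelial-like cells, lay within 2-fold of each other.

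Bmper encodes a Chordin-type protein that can hinder or help Bmp signaling. It was rare in fibroblasts: 16 of 816 CTFs-like cells (1.96%, 1.12 to 3.16%), 5 of 1142 CBFs1-like cells and 1 of 504 CBFs2-like cells of the wild-type library were above 0, against 2 of 2476 epithelial cells. Higher shares were seen in interstitial cell of Cajal-like cells (8 of 20, 40%, 19.1 to 63.9%) and in pericyte-like cells (9 of 118, 7.63%, 3.55 to 14.0%). The order of the fibroblasts differed in the reporter library, with 34 of 851 CBFs2-like cells (4.0%, 2.78 to 5.54%), 8 of 759 CTFs-like cells (1.05%) and 1 of 2089 CBFs1-like cells above 0.

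Twsg1 encodes Twisted gastrulation, which binds Bmps together with Chordin. Unlike Grem1, it was highest in CTFs-like cells. It averaged 4.19 in CTFs-like, 1.40 in CBFs1-like, 1.01 in smooth muscle-like and 0.944 in CBFs2-like cells of the wild-type library, with 87.9% (85.4 to 90.0%), 66.2% (63.4 to 68.9%), 56.7% (53.3 to 59.95%) and 54.8% (50.3 to 59.2%) of cells above 0. After thinning to 1000 corrected counts these shares were 34.2%, 15%, 11.1% and 9.72%. The median CTFs-like cell held 4 corrected counts, so that here the class mean reflects most of the cells. Twsg1 in reporter cells averaged 0.682 in CTFs-like, 0.338 in CBFs1-like, 0.270 in CBFs2-like and 0.387 in the unnamed fibroblast cluster. Twsg1 was also found in the epithelium, at 0.139 over all epithelial cells. Among epithelial classes Twsg1 was highest in the 86 enteroendocrine-like cells, of which 41.9% were above 0 (31.3 to 53.0%, mean 0.523). Transit-amplifying-like cells followed at a mean of 0.180, and enterocyte-like cells were at 0.0877.

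The question of how CTFs differ from CBFs in their antagonists was addressed by the ratio of the mean in CTFs-like cells to that in all CBFs-like cells, with a 2-fold ratio as the mark and at least 20 summed corrected counts required. In the wild-type library, 8 of the 9 members passed this filter. In CTFs-like cells, 3 members were 2-fold or more higher and 4 were lower, while over all 13020 genes passing the filter 6.38% were higher and 11.5% lower. Twsg1 was 3.32-fold higher (log2 ratio 1.73), Fst 2.89-fold higher (1.53) and Bmper 6.05-fold higher (2.60). The Fst ratio came from the CBFs1-like part of the pooled class, which averaged 0.00525 Fst on 6 counts. Mean Fst was 0.130 per CTFs-like cell against 0.135 per CBFs2-like cell, within 2-fold. The Bmper ratio rests on 21 counts for CTFs-like and 7 for CBFs-like cells. Grem1 was 176-fold lower (-7.46), on 10 summed counts in CTFs-like cells, a level not detectable above the epithelial background, so that the size of this fold is not a measure of expression in CTFs-like cells. Nog was 4.13-fold lower (-2.05), on 6 counts in CTFs-like cells. The interval of its share there (0.270 to 1.59%) overlapped that of the epithelial background (0.114 to 0.582%), so the size of this fold is uncertain too. Fstl1 was 2.04-fold lower (-1.03), a value that came to -0.97 when class totals were scaled to 10000. Chrdl1 was 13.1-fold lower, but with 3 counts in CTFs-like cells its counting interval spans 4.31 to 64.7. Chrd differed by less than 2-fold (-0.19). The median log2 ratio was -0.61 over the members and -0.10 over all genes.

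In the reporter library 8 members again passed the filter in this comparison, with 1 higher and 2 lower, against 14.2% higher and 6.47% lower among all 12193 genes. Grem1 was 19.4-fold lower in CTFs-like cells (log2 ratio -4.28), where 18 of its 24 counts lay in 1 cluster of 237 cells led by Ptprr, and the log2 ratio was -5.74 without that cluster. Chrdl1 was 5.94-fold lower, with 3 counts and an interval of 1.95 to 29.5. Twsg1 was 2.14-fold higher (1.10). This lies near the mark: the log2 ratio was 0.98 with class totals scaled to 10000 and 0.99 with each cell thinned to 1000 corrected counts. CTFs-like cells of this library also had more genes per cell (median 1598 against 1271), and the median log2 ratio over all genes was 0.37, against -0.59 over the members. Nog, Chrd, Fst, Fstl1 and Bmper lay within 2-fold. Grem1, Chrdl1 and Twsg1 were thus past 2-fold in the same direction in both libraries. For Chrdl1 the CBFs-like level came mostly from CBFs2-like cells. In the wild-type library its mean was 0.00701 in CBFs1-like and 0.00368 in CTFs-like cells, within 2-fold. In the reporter library 0.640% and 0.201% of cells in the CBFs1-like clusters were above 0, and 0.383% and 0.422% in the CTFs-like clusters.

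**Figure D2:**
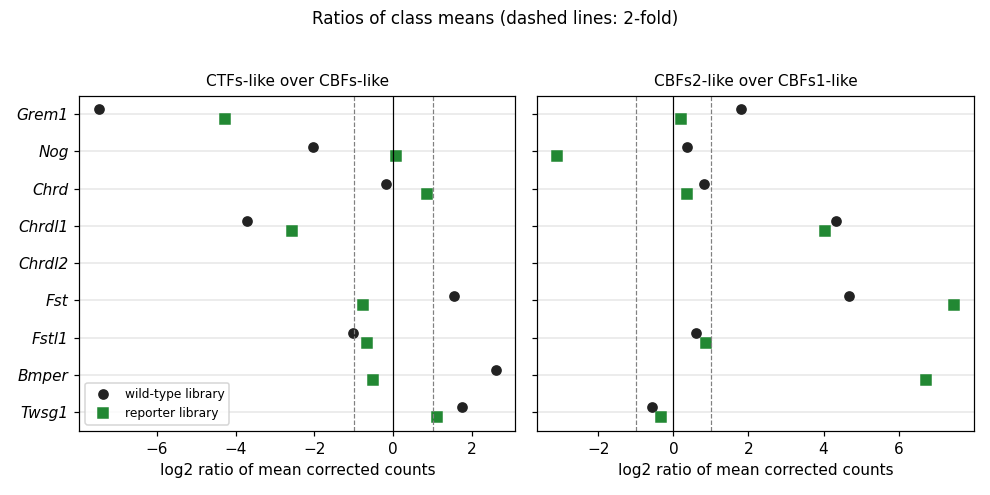
Log2 ratio of mean corrected counts (x axis) for each member (y axis) in CTFs-like over CBFs-like cells (left) and in CBFs2-like over CBFs1-like cells (right), with circles for the wild-type and squares for the reporter library and dashed lines at 2-fold. Grem1 lies far to the left in both libraries on the left panel (-7.46 and -4.28) and Twsg1 to the right (1.73 and 1.10), while Chrdl1 and Fst lie to the right in both libraries on the right panel. Members under the filter of 20 summed counts are not drawn.

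The CTFs-like cells were not uniform in these genes. At a finer clustering resolution of 0.8 the wild-type cells gave a CTFs-like cluster of 601 cells led by Fam180a, Cybrd1 and Sox6, 600 of them CTFs-like before, and another of 216 cells led by Lpar3, Dmp1 and Trpa1, all CTFs-like before. The smaller cluster had the higher Pdgfra, at 11.7 against 7.49 corrected counts. It also had more Twsg1, at 6.75 against 3.27. Fst was above 0 in 13.4% of its cells against 2.50%, and Bmper in 7.41% against none of 601 cells. Chrd ran the other way, at 3.24% against 16.3%. The smaller cluster held 79 Fst and 21 Bmper counts, and the larger 27 and 0.

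The reporter library had a CTFs-like cluster of 237 cells led by Ptprr, Nrg1 and Il1rl1 and 1 of 522 cells led by Tagln, Wif1 and Sox6. Chrd was above 0 in 1.69% of the former (0.462 to 4.26%) and 12.6% of the latter (9.92 to 15.8%), and Fst in 2.95% (1.20 to 5.99%) and in none (up to 0.704%). The intervals overlapped for Bmper, at 2.53% (0.935 to 5.43%) and 0.383% (0.0464 to 1.38%), and for Twsg1, at 50.6% (44.1 to 57.2%) and 44.1% (39.8 to 48.4%). Median gene numbers were 1847 and 1451.5 per cell, so the cluster with more Chrd had fewer genes per cell. With the Ptprr-led cluster left out, an alternative chosen after seeing the data, 6 members were past 2-fold in CTFs-like over CBFs-like cells in place of 3: Chrd was higher, Grem1, Nog, Chrdl1, Fst and Bmper were lower, and Twsg1 was at a log2 ratio of 0.94. In the 522 cells left, Nog held 1 count, Chrdl1 2, Bmper 2 and Fst 0, so that these calls rest on very few counts and that of Fst is a bound. The share over all genes was not taken for this set of cells. The Ptprr-led cluster depends on the resolution: at 0.8 it held 115 cells, all from the 237, while 117 of the others joined a CBFs1-like cluster. In the 115 cells Grem1 was above 0 in 1.74% against 4.64% in the 237, Fst in 6.09% and Twsg1 in 72.2% (63.0 to 80.1%).

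CBFs2-like cells were next compared with CBFs1-like cells. In the wild-type library 7 members passed the filter, of which 3 were 2-fold or more higher in CBFs2-like cells and 0 lower, against 8.36% higher and 6.09% lower among 12374 genes. Fst was 25.7-fold higher (log2 ratio 4.68), Chrdl1 20.1-fold higher (4.33) and Grem1 3.47-fold higher (1.79). Chrd (0.81), Fstl1 (0.60), Nog (0.35) and Twsg1 (-0.57) lay within 2-fold.

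In the reporter library 8 members passed, with 3 higher and 1 lower, against 6.51% higher and 9.23% lower among 11602 genes. Chrdl1 was 16.4-fold higher (log2 ratio 4.03). Fst was 177-fold higher with a counting interval of 30.7 to 7077, and Bmper was 106-fold higher with an interval of 18.0 to 4265, each against 1 count in CBFs1-like cells. The unnamed fibroblast cluster of 545 cells, left out of this comparison, held 1 count of Fst and 1 of Bmper. Nog was 8.55-fold lower on 1 count in CBFs2-like cells (interval 1.38 to 354). Grem1 differed by less than 2-fold (0.20), unlike in the wild-type library, and the difference between the libraries was not tested. Chrdl1 and Fst were the members past 2-fold in the same direction in both.

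The reporter CBFs2-like cells also held more than 1 pattern. Resolution 0.8 gave a CBFs2-like cluster of 516 cells led by Npy1r, Pi16 and Ebf1, 515 of them CBFs2-like before, and another of 336 cells led by Ptn, Wt1 and Chodl, all CBFs2-like before. Grem1 was above 0 in 23.4% of the former and 8.93% of the latter, and Chrdl1 in 8.33% and 1.19%. The opposite held for Bmper, at 0.969% and 8.63%, and Fst was at 3.88% and 7.74%. In the wild-type library 32 of the 504 CBFs2-like cells formed a cluster led by Cox8b, Ptn and Kcnn3 at this resolution. Chrd was above 0 in 40.6% of these (23.7 to 59.4%), and Fst and Bmper were at 0, which in 32 cells allows shares of up to 10.9% (exact 95% bound).

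Smooth muscle-like cells were compared with all fibroblasts of the wild-type library. All 9 members passed the filter, and 2 were 2-fold or more higher in smooth muscle-like cells and 4 lower, against 6.95% higher and 15% lower among 13521 genes. Chrdl2 was 1673-fold higher, with a counting interval of 299 to 66182 because of the single count in fibroblasts. Chrdl1 was 3.52-fold higher (log2 ratio 1.82). Grem1 was 16-fold lower (-4.0), Fst 16.2-fold lower on 4 counts (-4.02), Chrd 2.99-fold lower (-1.58) and Twsg1 2.21-fold lower (-1.14). Nog (-0.08), Fstl1 (0.15) and Bmper (0.57) lay within 2-fold. The value of Nog depended on the clustering: with 15 principal components in place of 30 it was 2.69. The 20 interstitial cell of Cajal-like cells, outside the smooth muscle-like class here, held 121 Nog counts, against 19 in the 886 smooth muscle-like cells. Whether those 20 cells joined the class with 15 components was not tested.

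The study orders fibroblasts by Pdgfra, so Grem1 was also read by the Pdgfra count of each cell. Over all wild-type fibroblast clusters, Grem1 was above 0 in 32.9% of the 337 cells with no Pdgfra count, 36.3% of 782 cells with 1 to 2, 26.4% of 641 cells with 3 to 5, 8.76% of 445 cells with 6 to 10 and 1.95% of 257 cells with more than 10. Mean Twsg1 went the other way, at 1.08, 1.31, 1.82, 3.54 and 5.32. Median gene numbers in these bins lay between 2449 and 2715.5.

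Within a fibroblast class the Grem1 share was much flatter. In wild-type CBFs1-like cells the shares were 34.3%, 36.8%, 31.2% and 29.7% from 0 to 6-10 Pdgfra counts, and in CBFs2-like cells 42.5%, 46.3%, 38.9% and 35.6%. In CTFs-like cells no bin was above 1.82%, including the cells with 1 to 2 Pdgfra counts. Mean Grem1 was less flat in CBFs2-like cells, at 6.525, 4.85, 3.79 and 3.52 over the same bins, and was 1.03, 1.33, 1.18 and 1.43 in CBFs1-like cells. Mean Twsg1 differed within CTFs-like cells, from 1.65 at no Pdgfra count (23 cells) to 2.67, 3.26, 4.14 and 5.43. Median gene numbers in these bins were 1809, 2119, 2181, 2493 and 2637, and their part in the Twsg1 levels was not tested. In wild-type CBFs1-like cells the Twsg1 means were 1.06, 1.32, 1.67 and 2.84, the last over 37 cells, with 2479.5, 2707, 2816.5 and 2839 genes. In CBFs2-like cells they were flatter, at 0.85, 0.799, 0.926 and 1.11. In the reporter library the Grem1 share over all fibroblast clusters was 22.5%, 19.5% and 4.32% for 0, 1 to 2 and 3 to 5 Pdgfra counts.

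**Figure D3:**
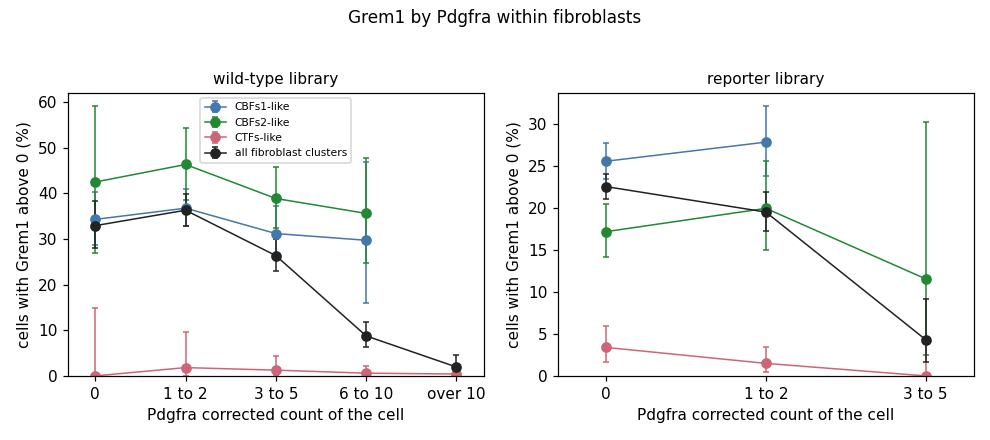
Share of cells with Grem1 above 0 (y axis, percent) by the Pdgfra corrected count of the cell (x axis, bins) in the wild-type library (left) and the reporter library (right), for each fibroblast class and for all fibroblast clusters, with exact 95% binomial intervals and only bins of at least 20 cells. The pooled line drops from 36.3% to 1.95% in the wild-type library, while the lines within CBFs1-like and CBFs2-like cells stay between 29.7% and 46.3% and the CTFs-like line stays near 0.

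Because Grem1 was above 0 in only some CBFs, cells with and without it were compared within a class. In wild-type CBFs2-like cells, Rspo3, which encodes a Wnt-potentiating R-spondin, was above 0 in 38.5% of the 205 cells with Grem1 (31.8 to 45.6%) and in 12.4% of the 299 cells without (8.86 to 16.7%). Wnt2b, a canonical Wnt ligand gene, was above 0 in 20.5% (15.2 to 26.7%) and 5.69% (3.35 to 8.95%). Pi16, a marker of this class, was the other way round at 35.1% (28.6 to 42.1%) and 72.6% (67.1 to 77.6%). Median gene numbers were 2834 and 2762, and the intervals of these 3 genes do not overlap. Cd81, another marker of the class, was at 98.5% and 99.3%, near its ceiling in both groups. In CBFs1-like cells Rspo3 was at 16.4% (12.9 to 20.4%) with Grem1 and 7.92% (6.08 to 10.1%) without. Wnt2b was at 27.2% (22.9 to 31.9%) and 19.1% (16.3 to 22.1%) there. Cd81 was at 30.7% (26.2 to 35.5%) and 19.2% (16.4 to 22.2%). These intervals do not overlap either, while those of Pi16, at 5.29% and 3.36%, do. Median gene numbers were 2773 and 2638.

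Among the other antagonists, in the same CBFs2-like cells Chrd was at 18.5% (13.5 to 24.5%) with Grem1 and 26.8% (21.8 to 32.2%) without, Chrdl1 at 10.7% and 8.70%, Fst at 5.85% and 7.69% and Twsg1 at 54.1% and 55.2%, all with overlapping intervals. In CBFs1-like cells Twsg1 was at 60.2% (55.2 to 65.0%) with Grem1 and 69.4% (65.9 to 72.7%) without, so that these intervals do not overlap, and Chrd at 17.9% (14.2 to 22.0%) and 11.9% (9.70 to 14.5%). In reporter CBFs2-like cells Pi16 was again less frequent with Grem1, at 25.2% (18.5 to 32.9%) against 43.7% (40.0 to 47.5%), whereas Rspo3, at 14.6% (9.36 to 21.2%) and 9.29% (7.24 to 11.7%), had overlapping intervals, and Cd81 was at 82.1% and 83.6%. In reporter CBFs1-like cells Cd81 was at 19.4% (16.1 to 23.0%) with Grem1 and 8.99% (7.61 to 10.5%) without. The intervals of Rspo3, Wnt2b and Pi16 overlapped there.

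**Figure D4:**
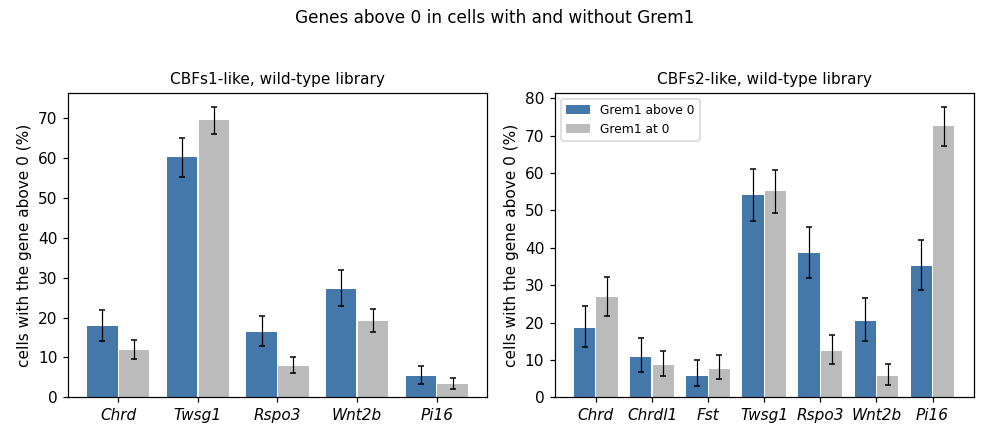
Share of cells with each gene above 0 (y axis, percent) among wild-type CBFs1-like (left) and CBFs2-like cells (right) with Grem1 above 0 (blue) or at 0 (grey), with exact 95% binomial intervals. In CBFs2-like cells Rspo3 (38.5% against 12.4%) and Wnt2b (20.5% against 5.69%) are more frequent and Pi16 less frequent (35.1% against 72.6%) with Grem1, while the intervals of Chrd, Chrdl1, Fst and Twsg1 overlap. In CBFs1-like cells Rspo3 (16.4% against 7.92%) and Wnt2b (27.2% against 19.1%) are also more frequent with Grem1.

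Counted together without the widespread Fstl1 and Twsg1, at least 1 of the other 7 antagonists was above 0 in 63.5% of wild-type CBFs2-like, 44.8% of CBFs1-like, 44.0% of smooth muscle-like and 21.4% of CTFs-like cells, against 2.42% of epithelial cells. The genes behind these shares differed by class: Grem1 and Chrd in CBFs, Chrdl2 in smooth muscle-like cells and Chrd in CTFs-like cells. In the reporter library the shares were 33.8%, 30.2% and 14.2% for CBFs2-like, CBFs1-like and CTFs-like cells and 42.2% for the unnamed fibroblast cluster, whose median of 1861 genes per cell was above the 1296 of CBFs1-like cells.

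**Figure D5:**
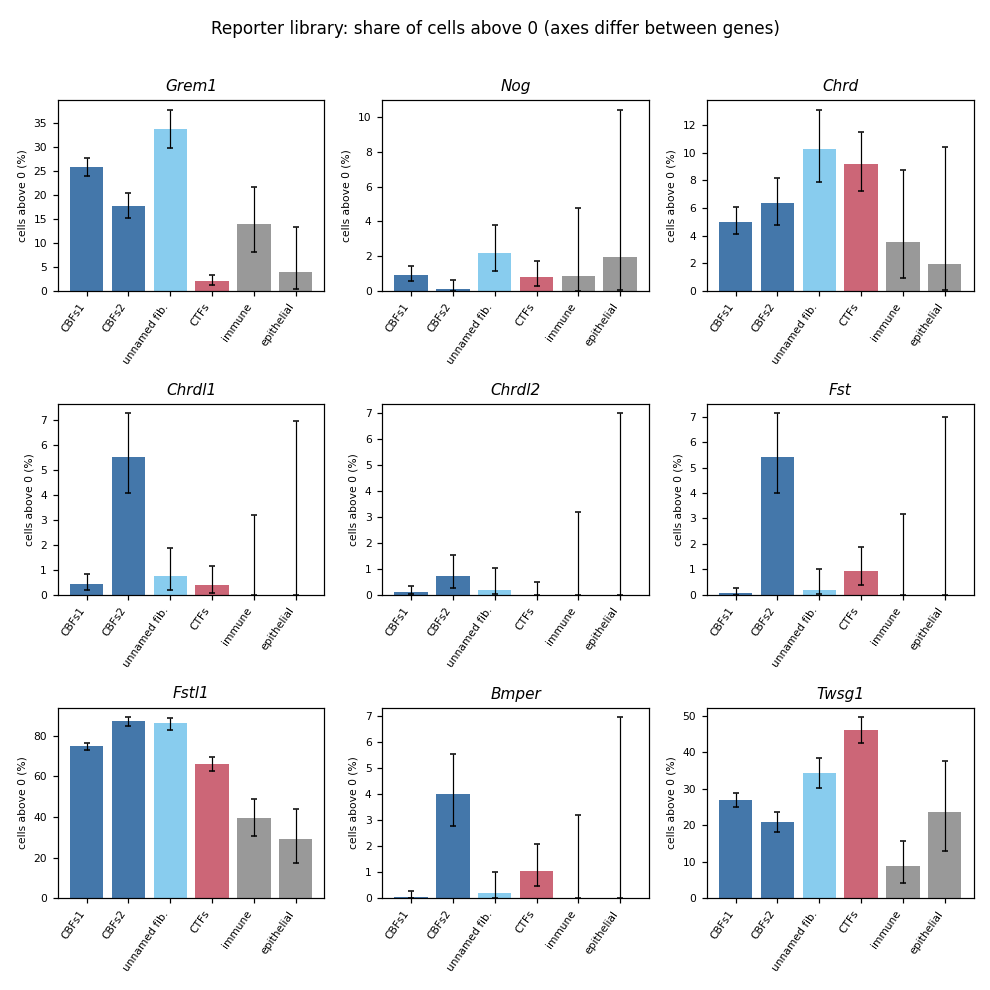
Share of cells with a corrected count above 0 (y axis, percent, scaled separately for each gene) for each of the 9 genes in 6 cell classes of the reporter library (x axis), with exact 95% binomial intervals. Grem1 is at 25.9% in CBFs1-like, 17.7% in CBFs2-like, 33.8% in the unnamed fibroblast and 2.11% in CTFs-like cells, while Chrdl1, Fst and Bmper are seen mainly in CBFs2-like cells and Twsg1 is highest in CTFs-like cells (46.1%).

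A list of 61 other Bmp pathway genes was read in the same way. In CTFs-like over CBFs-like cells of the wild-type library, 45 of the 51 listed genes passed the filter, with 12 higher and 12 lower by 2-fold, beside 6.38% higher and 11.5% lower over all genes. In the reporter library 43 of 45 passed, with 16 higher and 3 lower, beside 14.2% and 6.47%. Among ligand genes 6 of 11 were higher and 2 lower in the wild-type library, and 7 of 10 were higher and 1 lower in the reporter library. In the order wild-type and reporter, the log2 ratios were 2.75 and 2.19 for Bmp2, 4.60 and 5.91 for Bmp3, 2.87 and 2.54 for Bmp5 and 3.06 and 3.51 for Bmp7. The activin subunit genes Inhba (3.01 and 2.56) and Inhbb (2.20 and 3.73) were also higher in both. Bmp4 was within 2-fold between CTFs-like and CBFs1-like cells of the wild-type library, at 10.5 and 8.36 corrected counts, and lower in CBFs2-like cells at 2.67.

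Of the receptor genes, 0 of 10 were higher and 3 lower in CTFs-like cells of the wild-type library, and 1 of 10 was higher and 2 lower in the reporter library, where the shares over all genes were 6.38% higher and 11.5% lower, and 14.2% and 6.47%. The activin receptor gene Acvr2a (-1.14 and -1.59) and the coreceptor gene Rgmb (-2.42 and -1.22) were lower in both. Of the 4 Smad transducer genes, 0 were higher and 1 was lower in the wild-type library, and 1 was higher and 0 lower in the reporter library. Among the response genes, 3 of 9 were higher and 1 lower in the wild-type library and 4 of 9 higher and 0 lower in the reporter library. Id1 (2.26 and 2.45) and Id2 (1.13 and 1.55), which are direct targets of Bmp signaling, were higher in both.

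Inhibitors outside the 9 genes also differed between CTFs-like and CBFs-like cells, with 3 of 10 higher and 4 lower in the wild-type library and 3 of 9 higher and 0 lower in the reporter library. Over all genes 6.38% were higher and 11.5% lower in the former, and 14.2% and 6.47% in the latter. Those higher in both were Nbl1 (2.07 and 2.38), a relative of Grem1 in the DAN family that averaged 15.7 corrected counts in wild-type CTFs-like cells, Crim1 (1.55 and 1.43) and Smoc1 (1.93 and 3.54). Sostdc1 averaged 6.54 in glia-like cells. The interstitial cell of Cajal-like cluster, where Nog was highest, had response gene levels of 12.5 for Id1, 22.4 for Id2 and 23.1 for Id3.

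The genes whose pattern was most like that of a member were found by the Pearson correlation of log2 class means over the 14 named classes of the wild-type library, which share 1 library and, for the fibroblast classes, much of their expression. Mgp, Thy1 and Pid1 were nearest to Grem1 (r = 0.88 for each). Tmem119 (0.95), Tmem158 (0.94) and Zfp449 (0.92) were nearest to Twsg1. Mxra8, Serpinh1 and Col5a2 were nearest to Fstl1 (0.98 for each), and Cyp27a1, Ccdc80 and Gli2 to Chrd (0.95, 0.94 and 0.94). Pde6h (0.95), Reep1 (0.94) and Cdh6 (0.93) were nearest to Chrdl2, of which Cdh6 and Pde6h are among the leading genes of the smooth muscle-like cluster. For Nog it was Clvs2 (0.96), for Chrdl1 Fbxo30 (0.89), for Fst Fam19a5 (0.90) and for Bmper Gm44256 (0.96).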

How the data were processed

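Colon cells of the 2 mouse groups were profiled by droplet-based 3' single-cell RNA sequencing, in 1 library each. Per the labels, the submitters used Cell Ranger, Seurat 3.1, R 3.6.2 and the mm10 genome. The labels do not give the version of Cell Ranger, and the strand setting is not given in the sources used here. Both deposited files of a library hold whole-transcriptome values per cell: 1 holds corrected UMI counts, whole numbers that the authors adjusted for depth (treated as a score and not as raw counts), and the other holds their natural log after adding 1, exactly. No count model was therefore run. The correction pulls the depth of the cells together and can add or remove single counts, which matters most for rare genes such as Nog and Bmper.

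The natural log values as deposited were clustered with Seurat 5.3.0 in R 4.3.3 on 3000 variable features less the 9 genes and the other Bmp pathway genes (2968 and 2974 used), 30 components and a resolution of 0.45 (wild-type) or 0.3 (reporter). Clusters were named from 19 marker lists, with thresholds set after the clusters but before the values of the 9 genes were seen in this work. The members and lists were chosen with earlier results of these data known. Named genes were the 9 members, pathway genes past 2-fold in CTFs-like over CBFs-like cells in the same direction in both libraries or high in their role, and the 3 genes most like each member over 14 classes (of log2(mean + 0.01)). Genes singled out beyond these (Sostdc1 and the partners Rspo3, Wnt2b, Pi16 and Cd81) and the finer clusters were chosen after their values were seen.

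Ratios of class means (Python 3.11.15, numpy 2.4.6) used genes with at least 20 summed corrected counts over both classes. A class at 0 was bounded by 3 counts, and ratios on 1 to 3 counts carry an exact counting interval. Shares carry exact Clopper-Pearson 95% intervals (scipy 1.17.1). A limit for a share of 0 is 3 counts of the class, unless it is called an exact bound. Ratio and interval code was tested on simulated data. Scrublet (scanpy 1.11.5) called 5 of 7495 and 4 of 4409 cells, too few for a working caller, so doublets were kept. Alternatives in clustering, depth, scaling, mitochondrial share and filter were tried. A result on 1 pathway gene is not reported here.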

Additional observations from a re-analysis of the deposited data

How the results depend on the processing

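Of 377 alternative log2 ratios over 40 member comparisons, 340 stayed within 1.5-fold of the reported value, 37 moved and 0 past 2-fold turned their direction. The 377 include 40 with the few cells called by Scrublet left out, which could hardly move, and all 40 stayed. With each cell thinned to 1000 corrected counts, fewer members passed the filter, and the number past 2-fold came to 2 in CTFs-like over CBFs-like (Twsg1 and Grem1) and 1 in CBFs2-like over CBFs1-like cells (Grem1) of the wild-type library, and to 1 in CBFs2-like over CBFs1-like cells of the reporter library (Chrdl1). In reporter CTFs-like over CBFs-like cells it was 5 with the resolutions of the libraries exchanged (Chrd and Twsg1 higher, Grem1, Chrdl1 and Bmper lower) and 6 without the Ptprr-led cluster, an alternative added after seeing the data. Without that cluster Fst, Nog, Chrdl1 and Bmper held 0 to 2 counts in CTFs-like cells. Shares over all genes were not taken under these alternatives. The cause of these shifts was not tested. The reporter log2 ratio of Grem1 ranged down to -5.74 without that cluster, and that of Bmper in reporter CBFs2-like over CBFs1-like cells was 4.53 at resolution 0.8 in place of 6.72. Other counts were within 1.5 times of those reported. With the unnamed reporter fibroblast cluster counted as CBFs1-like, also an unplanned alternative, 14 of 16 ratios stayed within 1.5-fold, 2 moved and 0 reversed. Of 36 shares of members in wild-type CBFs1-like, CBFs2-like, CTFs-like and smooth muscle-like cells, 25 had an interval above the epithelial one. The number was 19 with at least 2 corrected counts required and 18 after thinning. The same count was not made over all genes. These numbers therefore do not set the members apart from other genes. No paired analysis was possible because each condition has 1 library. Depth limits Nog, Bmper, Fst and Chrdl1 in the reporter library, where several classes held 1 to 3 counts.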
